A study of Mus musculus with 288 samples.

Results

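The 24 liver libraries examined here came from BLKO mice fed ad libitum, out of 288 libraries in the series, and were taken by their genotype, tissue and feeding labels. BLKO mice (Alb-Cre with Bmal fl/fl) carry floxed alleles of Bmal1, a transcription factor of the circadian clock (gene symbol Arntl), together with Cre recombinase driven by the albumin promoter. They were C57BL/6 mice aged 3 months in a cycle of 12 h light and 12 h dark, with food always available during the 30 days of the experiment. The libraries fall at 12 times from 0 to 22 h, 2 at each time, named A and B. Nothing in the labels says when the lights came on, and times below are given as labelled. A further 3 groups of 24 libraries served for comparison: ad libitum livers of Alb-Cre mice, which carry the same Cre without the floxed alleles, and the white fat and lung of ad libitum BLKO mice. Animals are not named, and the p-values rest on the spread from library to library, which may be technical.

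In the mammalian clock, BMAL1 pairs with CLOCK or NPAS2 and switches on genes that carry E-boxes, among them the Per and Cry genes, whose proteins block the pair, and Nr1d1, whose protein (REV-ERBα) represses Arntl. The albumin promoter is active in hepatocytes, so Kupffer, endothelial and stellate cells of a BLKO liver keep Bmal1, and so do the other organs. A liver without a hepatocyte clock still receives daily signals from outside, such as food, hormones, nerves and body temperature. The question was which transcripts still followed the time of day.

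The deposited BLKO liver table lists 12035 genes, and the total count per library ran between 1214842 and 5462461 with a median of 3827820. Of these genes, 9620 had enough counts to be tested. Markers of hepatocytes were present in every library, with summed levels of 93543 to 120962 CPM (counts scaled to the size of the library) at 12 to 22 h and 91925 to 115386 CPM at 0 to 10 h over all 12 markers. Arntl ranged from 7.48 to 15.1 CPM in BLKO livers, against 0 to 24.2 CPM in Alb-Cre livers. Which exon was deleted, and where in the gene the reads lie, is not stated in the labels, so Arntl counts do not check the deletion. The libraries 0B, 4B and 22A stood apart from the other 21. Their residual SD around the fitted daily waves was 0.681, 0.532 and 0.414 log2 units, against 0.268 to 0.385 in the others. Genes picked after their values were seen show the contrast: Apoa4 had 7861, 4030 and 1696 CPM in 0B, 4B and 22A, against 166 to 321 CPM in the other 21 libraries, and Thrsp had 28.9, 29.4 and 61.7 CPM, against 151 to 2372 CPM. Results are therefore given for all 24 libraries and again for the 21.

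A daily rhythm was tested by fitting each gene with a 24 h and a 12 h wave together. The test was edgeR's quasi-likelihood F test, with Benjamini-Hochberg adjustment over all genes and a threshold of 0.05. A 24 h rhythm was called for 222 of 9620 genes (2.31%), and for 441 of 9581 genes (4.6%) in the 21 libraries, with 191 genes in both lists. The 12 h wave was called for 7 genes (0.0728%), and for 18 (0.188%) in the 21 libraries, which include all 7. The called 24 h rhythms were shallow, with a median peak-to-trough of 0.75 log2 units, against 0.29 over all tested genes. A span of 1.5-fold or more was reached by 170 of the 222, and 2-fold or more by 53. In 4 h bins from 0 h on, 36, 48, 38, 11, 61 and 28 of the 222 genes peaked. Leaving out 1 library moved the 24 h count between 119 (without 20B) and 293 (without 0B). In the 21 libraries the same bins held 45, 78, 106, 34, 95 and 83 of the 441.

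Of the core clock, 2 of 17 tested genes kept a called 24 h rhythm, Nr1d1 and Per2, and Per1 joined them in the 21 libraries. The called share of all genes was 2.31%, and 4.6% in the 21 libraries. Nr1d1 (chr11:98767932-98775333, mm10, minus strand) had the lowest p of all genes, with an adjusted p of 4.6e-05 and a peak-to-trough of 2.90 ± 0.32 log2 units (SE). It ranged from 0.724 CPM to 6.84 CPM with a median of 2.78 at 12 to 22 h, against 1.38 to 21.3 CPM with a median of 7.83 at 0 to 10 h. Its mean was 2.64 CPM at 0 h, 14.2 CPM at 6 h, 12.0 CPM at 10 h and 0.741 CPM at 22 h. Libraries were thus high at 4 to 10 h and lowest at 22 h, and the ranges of the early and late libraries overlap. Per2 (chr1:91415982-91459324, minus strand), a repressor of the BMAL1 complex that also responds to signals from outside the cell, peaked at 17.1 h with 1.17 ± 0.26 log2 units from peak to trough. Per2 levels were 17.1 to 32.0 CPM with a median of 22 at 12 to 22 h, against 5.46 to 21.7 CPM with a median of 11.9 at 0 to 10 h. Of the early libraries, 0A and 2A alone, at 21.7 and 21.1 CPM, lay above the lowest late one. Per1, the paralogue of Per2, had an adjusted p of 0.58 in 24 libraries and 0.00033 in 21, where its peak-to-trough was 2.15 log2 units.

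The remaining core clock genes did not pass the test. Their peak-to-trough values included 0.12 ± 0.20 log2 units for Npas2, a partner of BMAL1, 0.09 ± 0.26 for Per3 and 0.35 ± 0.15 for Cry1. Nr1d2 and Clock, at 1.83 and 2.23 CPM on average, had wider but less certain values of 1.28 ± 0.49 and 0.82 ± 0.25. Csnk1d, Csnk1e, Fbxl21, Cry2, Rora, Bhlhe40 and Arntl lay between 0.10 and 0.84. Among 13 clock output genes, Dbp, which encodes a PAR bZIP factor, and Lpin1, a phosphatidate phosphatase, were called, against 2.31% of all genes. Usp2, Tspan4 and Noct were added in the 21 libraries, where 4.6% of all genes were called. Dbp peaked at 8.59 h with 1.12 ± 0.28 log2 units, from 9.95 to 23.3 CPM at 12 to 22 h and 8.65 to 40.8 CPM at 0 to 10 h. It was called in 19 of 24 fits that left out 1 library each and was lost without 6B, 10A, 10B, 18B or 20B (adjusted p up to 0.062). Lpin1 peaked at 13.6 h, with means of 248 CPM at 12 h and 233 CPM at 14 h, against 28.1 to 76.2 CPM at every other time. Its call was lost without 2A, 2B, 14A or 14B (adjusted p up to 0.060).

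**Figure D1:**
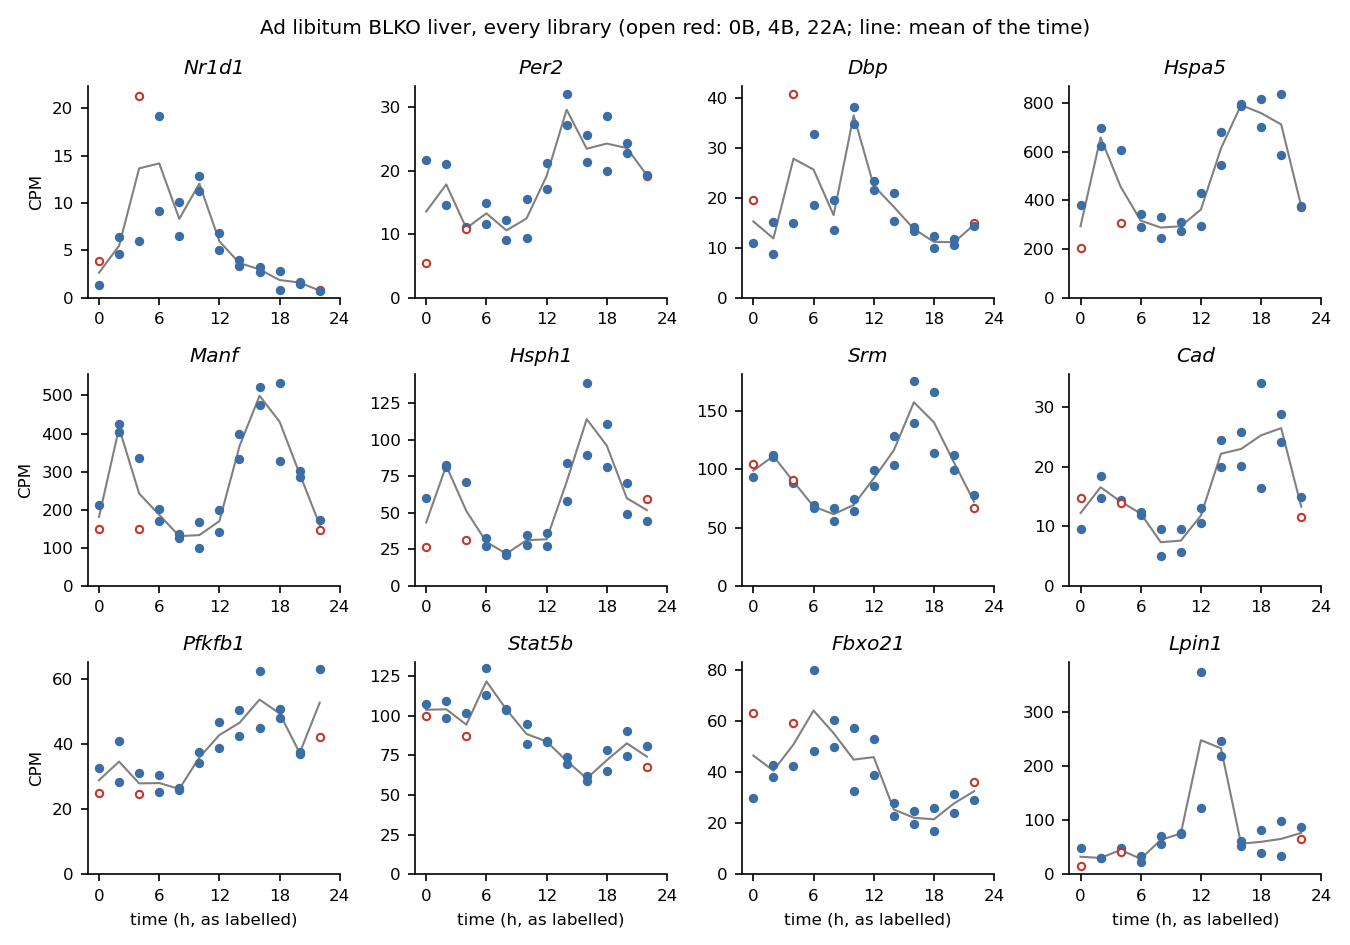
CPM (vertical axes, from 0) against labelled time (horizontal axes) for 12 genes in ad libitum BLKO liver. Each point is 1 library, open red points are 0B, 4B and 22A, and the line joins the mean of the 2 libraries of each time; Nr1d1 is lowest at 18 to 22 h, and Manf and Hspa5 show 1 maximum at 2 h and another at 16 to 18 h.

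Genes for protein folding in the endoplasmic reticulum (ER) were among those called. Hepatocytes secrete most plasma proteins, and when unfolded protein accumulates in the ER the factors ATF6 and XBP1 raise ER chaperones and the machinery for export and degradation. Of 28 tested genes of this kind, 8 had a called 24 h rhythm (Hspa5, Creld2, Manf, Dnajc3, Hyou1, Sec23b, Edem1 and Syvn1), against 2.31% of all genes, and 16 of 28 in the 21 libraries, against 4.6%. All 8 peaked between 18 and 19.6 h, with 0.56 to 1.51 log2 units from peak to trough. The median peak-to-trough of the whole list was 0.52 log2 units, against 0.29 over all genes. This median does not mark out the ER list. It was 0.87 for cholesterol synthesis and uptake and 0.89 for glucocorticoid-induced genes, with 0 called in each. In the 21 libraries it was 0.58 for the ER list and 0.31 and 1.14 for those lists. The fitted 24 h peak lay between 16 and 21 h for 19 of 28 (67.9%), against 18.6% of all tested genes.

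Hspa5 (BiP), the main chaperone of the ER lumen, ranged from 293 to 837 CPM with a median of 633 at 12 to 22 h, and from 204 to 695 CPM with a median of 322 at 0 to 10 h. Its means were 293 CPM at 0 h, 658 at 2 h, 288 at 8 h, 791 at 16 h and 375 at 22 h, so the early range reaches its top at the 2 h libraries. The 24 h peak-to-trough was 1.09 ± 0.23 log2 units at 18.3 h, with an adjusted p of 0.020. Creld2, a disulfide isomerase of the ER, had 30.1 to 210 CPM with a median of 98.5 at 12 to 22 h and 34.0 to 122 CPM with a median of 40.5 at 0 to 10 h. Its means were 117 CPM at 2 h, 35.6 CPM at 8 h and 179 CPM at 16 h. Manf (chr9:106838312-106891979, minus strand), a secreted ER stress protein, reached 415 CPM at 2 h, 131 CPM at 8 h and 499 CPM at 16 h on average. Hyou1, a large ER chaperone, had its highest mean, 24.6 CPM, at 20 h. Hspa5, Dnajc3 and Syvn1 are named because of their promoters. Hspa5 was called in 22, Dnajc3 in 20 and Syvn1 in 17 of the 24 fits that left out 1 library, with adjusted p up to 0.068, whereas Creld2, Manf, Hyou1, Sec23b and Edem1 stayed called in all 24. Most of these calls were less stable when both libraries of 1 time were left out. Of those 12 fits, Sec23b was called in 12, Hyou1 in 11, Edem1 in 9 and Creld2 and Hspa5 in 8. Manf was called in 7, and Dnajc3 and Syvn1 in 6 (edgeR adjusted p up to 0.14). With the 24 h wave fitted without the 12 h wave, Creld2 and Sec23b were not called (adjusted p 0.085 and 0.050).

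Some promoters of these genes hold a sequence that the rhythm test did not use. The ER list was drawn up from genes of this response, and Hspa5, Dnajc3 and Syvn1 were named for the sequence. Nothing about the rhythm is therefore read from its presence. The ER stress response element is CCAAT, then any 9 bases, then CCACG, and is known as the binding sequence of NF-Y and ATF6. It was searched on both strands from 250 bases before to 50 after each start in the RefSeq promoters of GRCm38.p6, which hold 7760 of the 9620 tested genes. It occurred in 14 of the 7760 (0.18%), and 8 of these 14 are among the 23 genes of the ER list with a promoter. Among the 222 genes with a 24 h rhythm, 188 had a promoter and 4 held the element: Hspa5, Creld2, Dnajc3 and Syvn1. Of the 8 called ER genes, 6 had a promoter in the table, and Sec23b and Edem1 did not hold the element. The 150 bases before their starts are shown to compare where the element lies, with its CCAAT and CCACG parts in capitals (in Creld2 on the other strand, as CGTGG and ATTGG).
Hspa5, chr2:34771940-34772089, plus strand: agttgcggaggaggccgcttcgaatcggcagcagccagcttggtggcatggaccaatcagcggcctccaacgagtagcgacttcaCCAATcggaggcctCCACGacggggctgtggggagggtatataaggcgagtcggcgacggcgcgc
Creld2, chr15:88819496-88819645, plus strand: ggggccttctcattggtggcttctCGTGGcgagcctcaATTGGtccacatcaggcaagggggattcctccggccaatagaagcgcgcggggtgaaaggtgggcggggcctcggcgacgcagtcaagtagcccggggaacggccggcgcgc
Dnajc3, chr14:118937782-118937931, plus strand: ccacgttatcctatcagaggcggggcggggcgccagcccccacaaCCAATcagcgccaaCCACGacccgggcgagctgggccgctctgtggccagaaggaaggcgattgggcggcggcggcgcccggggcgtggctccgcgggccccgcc
Syvn1, chr19:6046426-6046575, plus strand: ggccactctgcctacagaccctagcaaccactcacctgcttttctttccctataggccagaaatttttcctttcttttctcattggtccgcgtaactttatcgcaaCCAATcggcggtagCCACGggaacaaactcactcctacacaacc

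The element begins 65 bases before the start in Hspa5, 126 in Creld2, 105 in Dnajc3 and 44 in Syvn1. All 4 genes peaked between 18.3 and 19.3 h. Of the 14 tested genes with the element, 8 had a 24 h rhythm in the 21 libraries, against 4.6% of all genes. Calr, Hsp90b1, Derl3 and Pdia6 were added there to these 4. All 8 except Derl3 belong to the ER list, so this count largely repeats its 16 of 28. The E-box CACGTG was found in 28 of the 188 (14.9%), against 12.4% of tested genes. A match describes these letters only and was not tested for binding.

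**Figure D2:**
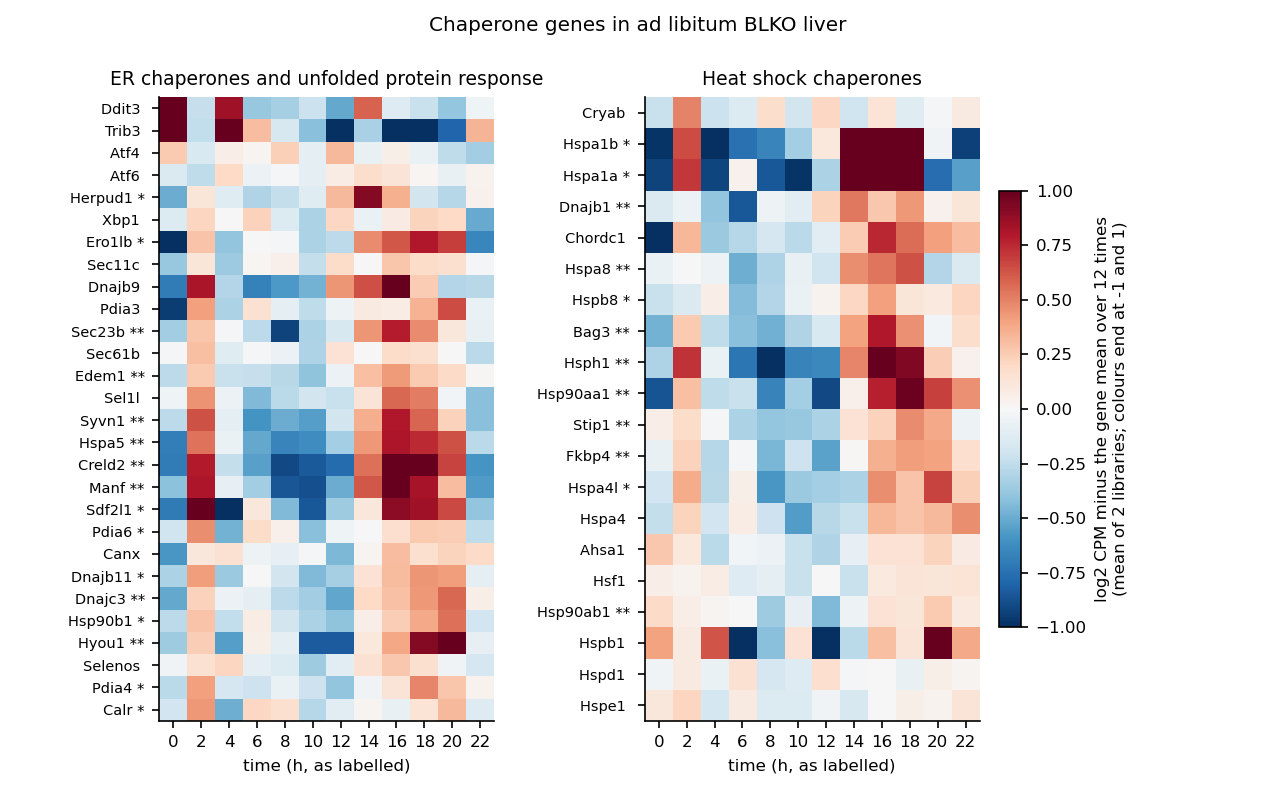
Heat map of 28 ER chaperone and unfolded protein response genes (left) and 20 heat shock genes (right), ordered by fitted 24 h peak, over the 12 labelled times in ad libitum BLKO liver. Colour is log2 CPM minus the mean of the gene over the 12 times, 2 stars mark a 24 h rhythm called in 24 libraries and 1 star in the 21 libraries alone; most starred rows are red at 16 to 20 h, and many ER genes are also red at 2 h.

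Cytosolic heat shock chaperones refold proteins under the control of HSF1. The heat shock list also holds the mitochondrial chaperones Hspd1 and Hspe1 and Hsf1 itself, which were not called. Of its 20 tested genes, 8 had a called 24 h rhythm (Hsp90aa1, Hsp90ab1, Hspa8, Hsph1, Dnajb1, Bag3, Stip1 and Fkbp4), against 2.31% of all genes. In the 21 libraries 11 were called, against 4.6% of all genes: Hsp90ab1 was lost (adjusted p 0.050), and Hspa1a, Hspa1b, Hspa4l and Hspb8 were added. The peaks of the 8 ran between 16.5 and 21.7 h, and 11 of the 20, called or not, peaked between 16 and 21 h. The half-day difference was above 0 for 20 of the 20 genes, whereas 51.9% of all tested genes had one below 0, and it was called for Dnajb1 alone. Hsph1 (chr5:149614287-149636376, minus strand), a partner of HSP70, had 27.6 to 139 CPM with a median of 65.0 at 12 to 22 h, against 21.4 to 82.9 CPM with a median of 32.1 at 0 to 10 h. Its peak-to-trough was 1.45 ± 0.25 log2 units at 19.1 h (adjusted p 0.0034), and was not called with the 24 h wave fitted alone (adjusted p 0.064). Stip1, which joins HSP70 to HSP90, reached 108 CPM at 18 h, against 59.5 CPM at 10 h, and its peak-to-trough was 0.68 ± 0.10. Dnajb1, an HSP40 co-chaperone, peaked earlier, at 16.5 h. The heat shock element, searched as GAANNTTC on both strands in the same promoters, was found in 10 of 15 heat shock genes with a promoter, against 551 of 7760 tested genes (7.10%). Among the 5 called members with a promoter it was found in Hsph1, Bag3 and Fkbp4. The list was drawn up from genes of the heat shock response, so nothing about the rhythm is read from these counts.

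Among 19 tested genes of vesicle transport and the Golgi apparatus 1 was called, against 2.31% of all genes: Arf4, a GTPase of Golgi transport. The fitted peak lay between 16 and 21 h for 18 of the 19, called or not, against 18.6% of all tested genes. Its peak-to-trough was 0.50 ± 0.09 log2 units at 18.4 h. In the 21 libraries 6 of 19 were called (Arf4, Sec24d, Sec31a, Sec61a1, Copg1 and Ssr3), against 4.6% of all genes. Sec23b (chr2:144556229-144590749), a coat subunit of vesicles leaving the ER, had 44.0 to 90.4 CPM with a median of 58.8 at 12 to 22 h, against 24.1 to 66.1 CPM with a median of 41.7 at 0 to 10 h. Lrrc59, a ribosome-binding protein of the ER membrane, peaked at 18.2 h with an adjusted p of 0.0017.

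The 12 h wave was called for Tmed3, Sec23b, Manf, Srm, Txndc11, Gmppb and the predicted gene Gm16731. Tmed3 and Sec23b act in ER to Golgi transport, Txndc11 and Manf in the ER lumen, and Gmppb makes GDP-mannose for glycosylation. The 12 h component peaked between 2.26 and 3.92 h and again 12 h later in these 7 genes, and 6 of them had a 24 h rhythm as well. In the fitted daily wave the main maximum fell between 14.7 and 16.4 h and the second between 1.7 and 3.3 h. Tmed3 had the lowest p (adjusted p 0.0023), with means of 58.1 CPM at 2 h, 20.3 CPM at 8 h, 69.9 CPM at 16 h and 25.9 CPM at 22 h. A wave with 2 maxima is common in fits of this kind, and was found in 7157 of 9620 genes. The 18 genes called in the 21 libraries add Creld2, Ero1lb, Sdf2l1 and Selenos of the ER list and Hsph1 and Hspa1a of the heat shock list. With the 12 h wave fitted alone 0 of 9620 genes were called, with 309 at an unadjusted p under 0.05. The calls also rest on few times: leaving out both libraries of 16 h or of 22 h left 0 genes, with 375 and 395 genes at an unadjusted p under 0.05 in edgeR. The count was 4 without 2A, 2B, 8A, 14B or 16A and 15 without 4B. Without 1 library, Gm16731 and Gmppb were lost in 14 of 24 fits each, Txndc11 in 5 and Srm in 2, with adjusted p up to 0.15.

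Some tubulins and the polyamine enzymes Srm and Odc1 were also called. Of 17 cytoskeleton genes, Tuba1c, Tuba4a, Tubb4b and Tmsb10 were called, and 6 were in the 21 libraries, against 2.31% and 4.6% of all genes. Tuba1c (chr15:99029891-99038110), an α-tubulin, had 125 to 226 CPM with a median of 207 at 12 to 22 h, against 83.2 to 198 CPM with a median of 126 at 0 to 10 h. Its means were 174 CPM at 0 h, 98.5 CPM at 6 h and 218 CPM at 16 h. The peak-to-trough was 1.02 ± 0.12 log2 units at 18.9 h (adjusted p 6.6e-05). Tuba4a and Tubb4b peaked at 20.2 and 20.0 h with 0.64 ± 0.11 and 0.61 ± 0.11. Tmsb10, an actin-binding peptide at 3.72 CPM on average, peaked at 6.03 h, and its call was lost in 16 of 24 fits without 1 library (adjusted p up to 0.093). Of 14 polyamine and one-carbon genes, 2 were called, and 5 in the 21 libraries, against 2.31% and 4.6% of all genes. Srm (chr4:148591503-148594993), spermidine synthase, had 67.0 to 175 CPM at 12 to 22 h, against 55.7 to 112 CPM at 0 to 10 h, and peaked at 18.1 h. Odc1, the first enzyme of polyamine synthesis, peaked at 21 h with 0.82 ± 0.19 log2 units and was lost in 8 of 24 fits without 1 library (adjusted p up to 0.079). Cad (chr5:31054780-31078479), which starts pyrimidine synthesis, had 10.6 to 34.1 CPM with a median of 20.0 at 12 to 22 h, against 5.10 to 18.4 CPM with a median of 12.2 at 0 to 10 h. Celsr1, a cadherin, and Slc17a9, a vesicular nucleotide transporter, peaked at 18.3 and 19.9 h with 1.41 ± 0.23 and 1.45 ± 0.21 log2 units.

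Another set peaked between 0 and 12 h. Stat5b (chr11:100780731-100850724, minus strand), which carries growth hormone signals, had 58.6 to 90.5 CPM with a median of 74.2 at 12 to 22 h, against 82.2 to 130 CPM with a median of 103 at 0 to 10 h. Its peak-to-trough was 0.71 ± 0.10 log2 units at 4.71 h. It was the only called gene of 16 tested growth hormone and sex-biased genes, against 2.31% of all genes. Fbxo21, an F-box protein of ubiquitin ligases, had 17.1 to 53.2 CPM at 12 to 22 h, against 29.9 to 80.0 CPM at 0 to 10 h, and peaked at 5.75 h with 1.32 ± 0.20 log2 units from peak to trough. Crot (chr5:8966033-8997324, minus strand), which moves medium-chain fatty acids out of peroxisomes, peaked at 8.64 h with 0.94 ± 0.13 and reached 343 CPM at 8 h, against 147 CPM at 0 h. Gabarapl1, of autophagosome formation, peaked at 6.91 h. Egr1, an immediate early transcription factor, had the widest called wave among genes of at least 10 CPM, 2.71 ± 0.64 log2 units at 3.22 h. Egr1 ranged from 3.99 to 47.1 CPM at 12 to 22 h and from 4.81 to 125 CPM at 0 to 10 h. Cyp2j9, Acsm5 and Cars, a cytochrome P450, an acyl-CoA synthetase and cysteinyl-tRNA synthetase, peaked at 10.4, 10.4 and 10.0 h with 0.76 to 1.08 log2 units. Shld2, of DNA repair, peaked at 13.0 h with 1.27 ± 0.19. The predicted gene Gm13889 and Fam47e peaked at 0.10 and 18.7 h, and Tcim at 14.6 h. Fam47e was called in 14 and Tcim in 21 of the 24 fits without 1 library (adjusted p up to 0.069).

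The metabolic lists held few called genes, and with 2.31% of all genes called, counts of 0 or 1 in lists of this size lie near that share. Cholesterol synthesis and uptake had 0 of 24 called in edgeR, with 0 of 24 at an unadjusted p under 0.05 and 0 of 24 in DESeq2. The summed level of its genes was 1254 to 1460 CPM in 0B, 4B and 22A, against 2879 to 8209 CPM in the other 21 libraries. The list was also at 0 of 24 in those 21. Amino acid catabolism had 0 of 27, with 5 at an unadjusted p under 0.05 and 3 in DESeq2. Xenobiotic metabolism had 0 of 24, with 3 at an unadjusted p under 0.05 and 0 in DESeq2. Bile acid synthesis and transport had 0 of 17, with 6 and 0, but 4 of 17 in the 21 libraries (Abcb4, Abcc2, Slco1b2 and Hsd3b7). Of all genes, 4.6% were called in the 21 libraries. Acute phase genes had 0 of 20, with 1 and 0, and proteasome subunits 0 of 31, with 9 and 0. Of 17 glucose and glycogen genes, Pfkfb1 and Pfkfb3 were called, the enzymes that set the level of fructose 2,6-bisphosphate. Pfkfb1 peaked at 17.0 h with 0.87 ± 0.15 log2 units, and Pfkfb3 at 12.6 h with 1.48 ± 0.35. Of 28 fatty acid oxidation genes, 1 was called, the lipid droplet gene Plin2, with 0.59 ± 0.14 log2 units at 2.66 h, and it was lost in the 21 libraries and in 15 of 24 fits without 1 library (adjusted p up to 0.097). In the 21 libraries 2 of the 28 were called, Cpt1a and Bdh1. Mcm3, of DNA replication, was the 1 called gene of 11 cell cycle genes, and was lost in 17 of 24 such fits (adjusted p up to 0.10).

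The simpler contrast of the 12 libraries at 12 to 22 h with the 12 at 0 to 10 h called 25 genes higher (0.26% of 9620) and 31 lower (0.322%) at 12 to 22 h. In the 21 libraries 24 genes (0.25%) were higher and 23 (0.24%) lower, and 30 genes were shared by both analyses, which is 53.6% of the 56 and 63.8% of the 47. Of the 56, 36 also had a 24 h rhythm. In 0 of 9620 genes did the 12 late and 12 early values separate without overlap. Tedc2, of centriole tubulins, had 131 to 222 CPM with a median of 167 at 12 to 22 h, against 39.8 to 136 CPM with a median of 91.1 at 0 to 10 h. Its log2 fold change was 0.86 ± 0.13 (adjusted p 0.0016). Ccnf, an F-box cyclin, had 28.6 to 50.3 CPM, against 14.8 to 32.1 CPM at 0 to 10 h, and its log2 fold change was 0.65 ± 0.11. Tedc2 (chr17:24215054-24220851) and Ccnf (chr17:24222198-24251484) are neighbours on the minus strand, and sharing of their reads was not tested. Pfkfb1 had 36.9 to 63.0 CPM at 12 to 22 h, against 24.5 to 40.7 CPM at 0 to 10 h, with a log2 fold change of 0.63 ± 0.10 (adjusted p 0.0020). Per2 was higher by 0.79 ± 0.14, and Tsc22d3 (GILZ), a glucocorticoid-induced leucine zipper, by 0.87 ± 0.17. Lower at 12 to 22 h were Stat5b, by -0.47 ± 0.08, and Pth1r, the receptor of parathyroid hormone, by -0.67 ± 0.12, with 11.3 to 21 CPM at 12 to 22 h and 19.8 to 52.3 CPM at 0 to 10 h. These 7 genes stayed called when any 1 library was left out.

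Other half-day calls lay close to the threshold, and the count of 56 fell to between 13 and 20 without 4A, 6B, 8A, 10B, 14A, 14B, 16A or 16B. Fmo5, a flavin monooxygenase, Nr1d1, Dnajb1, Plin2, Lyz2, Erbb3, Col4a1, Spata13 and Wdr91 had log2 fold changes between -1.77 and 0.88 and stayed called in 14 to 20 of 24 fits without 1 library, Fbxo21 in 12, Nolc1 in 8 and Nop2, Celsr1 and Trp53i11 in 6, with adjusted p up to 0.10. Nolc1 and Nop2, the 2 called of 28 ribosome biogenesis genes, were higher by 0.59 ± 0.14 and 0.36 ± 0.09, with 0.26% of all genes called higher. In the 21 libraries Nr1d1, Nolc1, Celsr1, Fbxo21, Col4a1, Erbb3, Spata13, Trp53i11 and Gapdh were not called (adjusted p 0.055 to 0.093). Gapdh had the largest called fold change, 4.80 ± 1.03 log2 units, but its values fell into 2 levels. In 14B, 16A, 20A and 22B it had 269, 455, 345 and 386 CPM, against 3.00 to 6.39 CPM in the other 8 late libraries and 3.05 to 8.59 CPM in the 12 early ones. Its call was lost without 9 single libraries, 14B, 16A and 22B among them (adjusted p up to 0.066).

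Among the markers of liver cell types, Lyz2 alone had a called half-day change. Lyz2, a macrophage gene, had 27.9 to 51.6 CPM with a median of 43.4 at 12 to 22 h, against 46.6 to 148 CPM with a median of 62.9 at 0 to 10 h. Over all 12 Kupffer cell and macrophage markers the summed level was 286 to 526 CPM with a median of 349 at 12 to 22 h, against 367 to 926 CPM with a median of 465 at 0 to 10 h, and 10 of 11 tested markers had a half-day difference below 0. The same held for 8 of 10 sinusoidal endothelial and 9 of 9 stellate cell markers, against 51.9% of all genes and 2 of 12 hepatocyte markers. Both tested erythroid markers and the 1 tested adipocyte marker had a difference above 0. Both tested cholangiocyte markers and the 1 tested marker each of T and NK, B and plasma, and neutrophil cells had a difference below 0. The cholangiocyte markers summed over 4 genes had a median of 143 CPM at 12 to 22 h and 125 CPM at 0 to 10 h. The summed stellate cell markers were 222 to 400 CPM at 12 to 22 h and 257 to 463 CPM at 0 to 10 h. This sum was 463, 453 and 400 CPM in 0B, 4B and 22A, against 222 to 390 CPM in the other 21 libraries. The Kupffer and macrophage sum was 926, 498 and 526 CPM in those 3, against 286 to 802 CPM. The median half-day difference of the Kupffer and stellate lists was -0.32 and -0.29 log2 units, and -0.29 for each in the 21 libraries. Among these markers Lyz2 and Pdgfrb, a stellate cell receptor, had a called 24 h rhythm, at 5.35 and 1.63 h, and Lyz2 lost it in 15 of 24 fits without 1 library (adjusted p up to 0.093). Col4a1, a basement membrane collagen, had 6.82 to 15.0 CPM at 12 to 22 h, against 8.28 to 27.3 CPM at 0 to 10 h. In bulk tissue, fewer cells of a type and less RNA per cell cannot be told apart, and the part of these cells in the early-peaking genes was not tested.

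The waves were then compared with those of ad libitum Alb-Cre livers in 1 fit of 48 libraries. The 24 h wave differed between genotypes for 380 of 9350 genes (4.06%), and Alb-Cre livers fitted alone had 1835 called genes of 9054 (20.3%). Of the 222 rhythmic genes of BLKO liver, 205 could be fitted in Alb-Cre liver, and 96 of these were called there (46.8%). Of those 96, 73 peaked within 3 h of their BLKO time, and the rest within 9 h. The difference of the wave was called for 36 of the 210 members that entered the joint fit (17.1%), of which 23 had the wider wave in BLKO and 13 in Alb-Cre. The BLKO wave was the wider for 157 of the 205, against 46.3% of all genes. Members were chosen for their wave in BLKO, which favours a wider wave there. Nothing is therefore read from that share, from the 17.1% or from the 23 and 13.

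**Figure D3:**
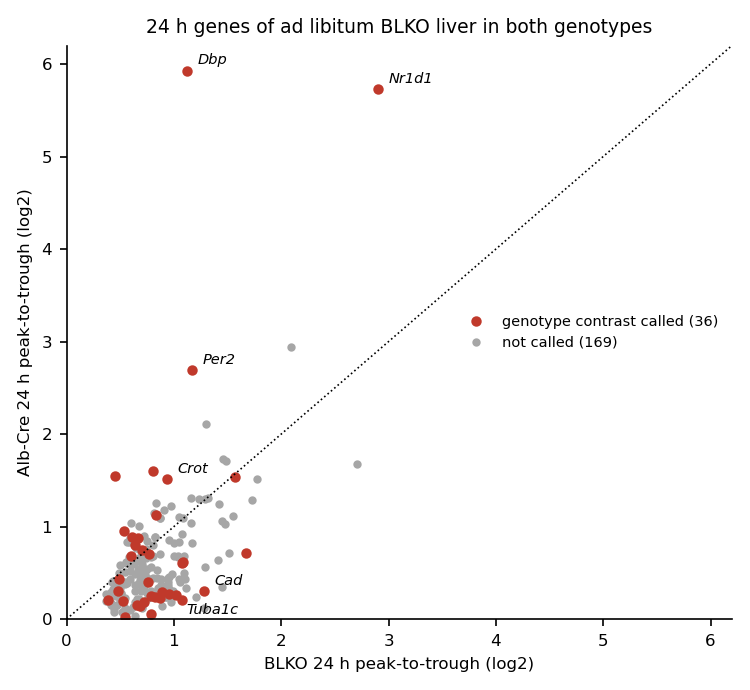
Each point is 1 of 205 genes with a called 24 h rhythm in ad libitum BLKO liver: its 24 h peak-to-trough in log2 units in BLKO liver (horizontal axis) and in Alb-Cre liver (vertical axis), with equality dotted. Red points are the 36 genes whose wave differed between genotypes; Dbp and Nr1d1 lie far above the line and Tuba1c and Cad below it.

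Nr1d1, Dbp and Per2 had a smaller wave in BLKO than in Alb-Cre liver. Nr1d1 had a peak-to-trough of 2.90 ± 0.32 log2 units in BLKO and 5.73 ± 0.29 in Alb-Cre liver, at 7.68 and 7.51 h (adjusted p of the difference 0.022). Its highest library had 21.3 CPM in BLKO and 142 CPM in Alb-Cre liver. Dbp had 1.12 ± 0.28 in BLKO and 5.93 ± 0.19 in Alb-Cre (adjusted p 2.8e-13). Per2 had 1.17 ± 0.26 at 17.1 h in BLKO and 2.69 ± 0.36 at 14 h in Alb-Cre (adjusted p 0.00097). The genes with the lowest p of the contrast were Clpx, a mitochondrial protease subunit, Tef, Dbp, Arntl and Npas2; all except Dbp were without a called rhythm in BLKO liver. Lpin1, Pfkfb1, Fbxo21, Egr1 and Hsph1 had adjusted p of 0.48 to 0.89 for the difference, which does not show that their waves were alike. Their BLKO and Alb-Cre peak times were 13.6 and 13.2 h for Lpin1 and 17.0 and 17.8 h for Pfkfb1.

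Other genes had their wave at other hours in the 2 genotypes, or a wider wave in BLKO. They were chosen for their wave in BLKO, which favours a wider wave there. Tuba4a peaked at 20.2 h in BLKO and at 3.13 h in Alb-Cre liver, and Tubb4b at 20.0 and 3.45 h, with peak-to-trough values of 0.61 to 0.89 log2 units in each (adjusted p of the difference 8.6e-06 and 6.0e-07). At 18 h Tuba4a averaged 413 CPM in BLKO and 235 CPM in Alb-Cre liver, whereas at 6 h it averaged 253 CPM in BLKO and 356 CPM in Alb-Cre. At 2 h it was high in both, with means of 382 CPM in BLKO and 381 CPM in Alb-Cre. Tuba1c had 1.02 ± 0.12 log2 units in BLKO and 0.26 ± 0.20 in Alb-Cre (adjusted p 0.0040), and Cad 1.28 ± 0.21 and 0.30 ± 0.32 (adjusted p 0.021). Hyou1 had 1.09 ± 0.24 at 19.6 h in BLKO and 0.61 ± 0.25 at 2.56 h in Alb-Cre (adjusted p 0.029). Its rhythm was not called in Alb-Cre liver fitted alone by the same edgeR test (adjusted p 0.24), so that Alb-Cre hour is uncertain. Hyou1 was the 1 gene of 27 ER list genes in the joint fit with a called difference, and 1 of 20 heat shock genes had one, both near the 4.06% of all genes. Crot peaked at 8.64 h in BLKO and at 1.94 h in Alb-Cre liver (adjusted p 1.6e-08), with means of 343 CPM in BLKO and 149 CPM in Alb-Cre at 8 h. Stat5b peaked at 4.71 h in BLKO and 1.12 h in Alb-Cre, and Cars at 10.0 and 5.31 h.

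**Figure D4:**
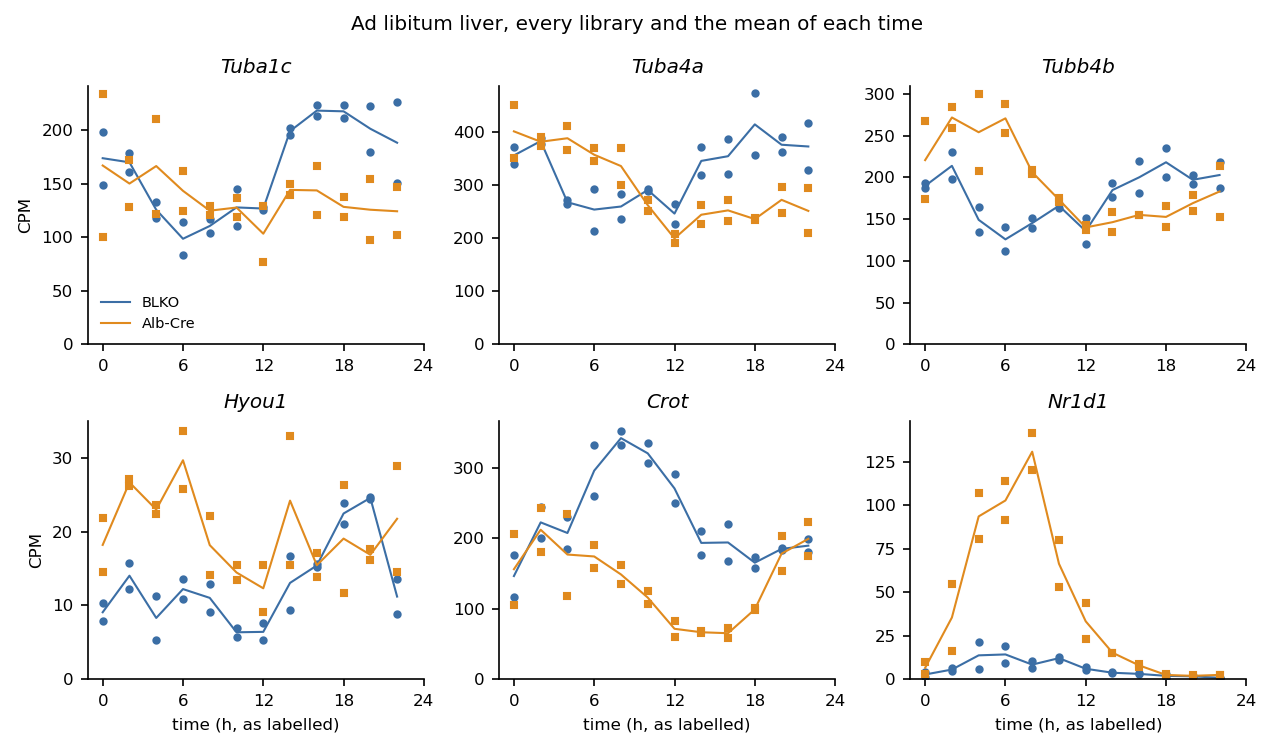
CPM (vertical axes, from 0) against labelled time (horizontal axes) for 6 genes in ad libitum liver, with BLKO in blue circles and Alb-Cre in orange squares, 1 point per library and a line through the mean of each time. The 3 tubulins are high at 14 to 22 h in BLKO, where Tuba4a and Tubb4b are also high at 0 to 2 h. In Alb-Cre, Tuba4a and Tubb4b are high at 0 to 8 h. Nr1d1 reaches 142 CPM in Alb-Cre and 21.3 CPM in BLKO.

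White fat and lung of BLKO mice keep Bmal1 and gave another readout for the same genes. In white fat 176 of 10751 genes (1.64%) had a 24 h rhythm, and in lung 1383 of 12189 (11.3%). Of the 222 liver genes, 187 were tested in white fat and 16 were called (8.56%), and 196 were tested in lung and 41 called (20.9%). These shared calls are 9.09% of the white fat calls and 2.96% of the lung calls. Peaks lay within 3 h of the liver for 10 of the 16 and 30 of the 41. The 9 genes called in all 3 organs included Dbp, Nr1d1, Per2, Hspa5, Hspa8, Hsph1, Trp53i11 and Slc25a33. Nr1d1 peaked at 7.68 h in liver, 7.85 h in white fat and 7.51 h in lung, with peak-to-trough values of 2.90, 3.97 and 5.62 log2 units. Hsph1 peaked at 19.1, 19.7 and 19.5 h with 1.45, 0.98 and 1.47, and Hspa5 at 18.3, 19.6 and 19.5 h with 1.09, 0.55 and 0.88. These 2 genes do not stand for their lists. Of 26 tested ER list genes, 1 was called in white fat and 3 in lung, near the 1.64% and 11.3% of all genes. Of 21 tested heat shock genes, 2 were called in white fat and 14 in lung. Slc25a33, a mitochondrial pyrimidine carrier, peaked at 5.84 h in liver, 15.5 h in white fat and 12.6 h in lung. Per2 peaked at 17.1 h in liver, against 14.7 h in white fat and 13.8 h in lung. Tuba1c and Crot, among the liver rhythms of lowest p, had adjusted p of 0.18 to 0.83 in these organs, and the difference between organs was not tested.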

How the data were processed

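RNA was sequenced after reverse transcription in plates and linear amplification by in vitro transcription, per the labels' protocols. Per the submitters' processing notes, mm10 was the build and STAR, HTSeq, cutadapt, bcl2fastq and DESeq2 the tools, without versions; the annotation and the strandedness of counting are not stated. The deposited tables hold raw read counts per gene and columns normalized by the authors, and 4 of 6 tables were used, counts only, with 0 columns left without a sample. Overlapping genes and near-identical copies can share reads.

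The 24 BLKO ad libitum liver libraries were fitted alone with edgeR 4.0.16 (limma 3.58.1, R 4.3.3): filterByExpr, TMM scaling, robust quasi-likelihood F tests on the 24 h and 12 h cosine and sine terms together (19 residual degrees of freedom) or on late against early times, with Benjamini-Hochberg adjustment. CPM are TMM-scaled. Peak times and peak-to-trough values come from least squares on log2 CPM (prior count 2). The genotype contrast used 48 livers and genes in both tables. Intervals and tests cover libraries, not animals.

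The text names the 15 called 24 h genes of lowest p, the 10 of largest peak-to-trough and the 8 highest and 8 lowest half-day changes at a mean of at least 10 CPM, up to 10 called 12 h genes, the core clock, up to 4 called members of each other list, and the 5 genes of lowest p in the genotype contrast. Genes outside this rule are named as complete sets of called members or were chosen after their values were seen. A few genes are not reported here, though they stay in the counts over lists and over all genes. Members, lists and tests were chosen with earlier results of these data known. Coordinates are GENCODE M21 on mm10 and promoters RefSeq on GRCm38.p6, matched by symbol. The fits were tested on simulated counts. DESeq2 1.42.0, Python 3.11.15, pandas 2.3.3 and matplotlib 3.10.9 were also used. Alternatives were DESeq2, median-ratio scaling, no filter on low counts, 24 h or 12 h terms alone, the 12 time means, a fold of 1.5, a block for the letter, added daytime-fed BLKO livers, and fits without each library, each time, or the 3 libraries 0B, 4B and 22A.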

Additional observations from a re-analysis of the deposited data

Results flagged for a closer look

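The 24 h wave differed between ad libitum BLKO and Alb-Cre livers for 22 of the named genes, by the edgeR contrast of the 24 h terms in 48 libraries, which is what singles them out here. The adjusted p was 1.9e-12 for Arntl, 2.1e-10 for Cry1, 0.0017 for Cry2, 6.9e-12 for Npas2, 0.0086 for Clock, 3.6e-08 for Per3 and 1.9e-14 for Tef. None of these 7 had a called 24 h rhythm in BLKO liver. The same holds for Per1, with 0.032 (0.16 without 0B, 4B and 22A), for Clpx, with 2.7e-18, and for Wdr91, with 0.0066. Of the genes with a called BLKO rhythm, the adjusted p was 2.8e-13 for Dbp, 0.022 for Nr1d1, 0.00097 for Per2, 0.0040 for Tuba1c, 8.6e-06 for Tuba4a, 6.0e-07 for Tubb4b, 1.6e-08 for Crot, 0.0035 for Stat5b, 0.021 for Cad, 0.00060 for Cars, 0.029 for Hyou1 and 0.048 for Cyp2j9. Arntl had a peak-to-trough of 0.42 log2 units in BLKO and 4.07 in Alb-Cre liver, and Clpx 0.27 in BLKO and 2.69 in Alb-Cre.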

How the results depend on the processing

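Median-ratio scaling, no filter on low counts and a block for the letter kept the 24 h, 12 h and half-day counts within 1.5 times of 222, 7 and 56. The 24 h count was 441 without 0B, 4B and 22A, 483 with DESeq2 and 571 with the daytime-fed BLKO livers in the model. Without both libraries of 1 time it was 147 (4 h), 126 (6 h), 89 (8 h), 101 (12 h), 112 (14 h), 92 (16 h), 95 (18 h) and 102 (20 h), and without 1 library 119 to 293, 119 to 147 without 6B, 8A, 12A, 14A, 14B, 16A, 18B, 20B or 22B, each more than 1.5 times below 222. The 12 h count was 18 without the 3 libraries, 20 with DESeq2, 11 with the daytime-fed livers and 0 with the 12 h terms alone in edgeR (309 at an unadjusted p under 0.05). Without 1 time it was 3 (2 h), 12 (4 h), 1 (8 h), 4 (14 h), 0 (16 h), 1 (20 h) and 0 (22 h), and without 1 library 4 to 15. The half-day count was 30 with a fold of 1.5 required, 170 with DESeq2, 128 from the 12 time means and 93 with the daytime-fed livers. Without 1 time it was 121 (2 h), 23 (4 h), 21 (6 h), 13 (8 h), 21 (10 h), 108 (12 h), 16 (14 h), 12 (16 h), 23 (18 h) and 34 (20 h), and without 1 library 13 (10B) to 76 (2A), with 35 and 36 without 18B and 6A. The genotype contrast gave 355 to 482 genes over its alternatives, 380 as reported. Of the single-gene values recomputed, 400 kept their side of the threshold, 24 lost the call and 3 gained it. The gains were Per1 without the 3 libraries, and Csnk1e with DESeq2 and with the daytime-fed livers. Of the half-day values, 0 changed sign. Peak times were not refitted with DESeq2, with the daytime-fed livers, or with the 24 h or 12 h terms alone. The cause of the changed counts and calls was not tested.

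With the replicate block the counts were 202 (24 h), 7 (12 h) and 51 (half-day), and 381 for the genotype contrast. Letters did not pair libraries: differences A minus B correlated between times with a median r of -0.02 (-0.49 to 0.60, 66 pairs), and libraries of the same label in both genotypes with 0.02 (-0.14 to 0.21, 24 pairs), 2 of 24 correlating best with their own label. At 1214842 to 5462461 counts per library, genes of a few CPM, such as Clock and Nr1d2, had wide errors.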

Other observations

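Gapdh, a glycolytic enzyme often used as a reference transcript, had 2 separate levels in each group of 24 libraries used here, with no library between. In BLKO liver 4 libraries had 269 to 455 CPM and 20 had 3.00 to 8.59 CPM. In Alb-Cre liver 10 had 619 to 870 CPM and 14 had 2.71 to 19.7 CPM. In BLKO white fat 18 had 534 to 1182 CPM and 6 had 2.66 to 6.51 CPM, and in BLKO lung 4 had 105 to 121 CPM and 20 had 0 to 6.70 CPM.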
